A study of Mus musculus with 71 samples.

Results

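The genes described are 7 of the 37681 genes in each table: those for the ionotropic glutamate receptors of the N-methyl-D-aspartate (NMDA) class, Grin1, Grin2a, Grin2b, Grin2c, Grin2d and Grin3a, and one gene of the delta class, Grid1. They were taken by symbol from the 6 tables of the study, 1 per brain region and time point, and all 7 passed the filter on low values in every table. RNA-seq was measured in 71 libraries from micro-punches of the nucleus accumbens (NAc), ventral tegmental area (VTA) and prefrontal cortex (PFC) of adult wild type C57BL/6 mice of both sexes, C57BL/6J in the study's methods. All mice had first been trained to work for food and fitted with a jugular catheter, and then self-administered either cocaine or saline and were taken after 1 or 28 days of abstinence. Each of the 12 groups had 6 libraries, except saline VTA at 28 days, with 5. Between 20971967 and 49700932 reads per library fell on genes. The labels do not tie a library to an animal, so p-values measure the spread between these libraries. In the study's methods the NAc, VTA and PFC were taken after removal of the brain, so libraries of different regions may share mice. Tests between regions treated them as independent.

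NMDA receptors are tetramers that open when glutamate and a co-agonist, glycine or D-serine, are bound and the membrane is depolarised, and the calcium they admit drives synaptic plasticity. GluN1 (Grin1) is obligatory and binds the co-agonist, the GluN2 subunits (Grin2a to Grin2d) bind glutamate and set kinetics and magnesium block, and GluN3A (Grin3a) lowers calcium permeability. GluD1 (Grid1) belongs to the same superfamily but works mainly as a synaptic organiser that binds cerebellins, which bridge it to the presynaptic side. In the reward circuit, receptors with GluN2B or GluN3A are known from studies of drug-evoked plasticity.

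The files use the mouse build mm9, in which the NMDA receptor genes lie on the minus strand and Grid1 on the plus strand. Grin1 spans chr2:25146701-25174707, Grin2a chr16:9577803-9995014, Grin2b chr6:135679844-136123529, Grin2c chr11:115110483-115128557, Grin2d chr7:53087253-53126298, Grin3a chr4:49674483-49858616 and Grid1 chr14:35633011-36396565. All are protein-coding, and reads were counted over their exons. On the opposite strand, E130003G02Rik shares 1307 exon bases with Grin1, which is 13.47% of the exon bases of Grin1. The strand used in counting is not given in the sources used here, so reads from that stretch cannot be told apart.

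RefSeq promoter windows of 300 bases (250 before and 50 after the start, build GRCm38.p6) were matched for 3 of the 7 genes, and all 3 are shown. Capitals mark the GC box GGGCGG or its reverse complement CCGCCC, which 35.7% of 32851 such windows hold.

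Grin1 (chr2:25319138-25319437, minus strand): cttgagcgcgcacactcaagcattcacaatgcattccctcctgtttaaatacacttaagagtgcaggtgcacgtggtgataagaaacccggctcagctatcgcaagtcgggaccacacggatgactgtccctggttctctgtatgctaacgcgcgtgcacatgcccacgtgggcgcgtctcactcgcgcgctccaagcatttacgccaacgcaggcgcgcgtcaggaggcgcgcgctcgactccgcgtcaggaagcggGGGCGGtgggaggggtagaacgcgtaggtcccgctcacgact

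Grin2c (chr11:115267194-115267493, minus strand): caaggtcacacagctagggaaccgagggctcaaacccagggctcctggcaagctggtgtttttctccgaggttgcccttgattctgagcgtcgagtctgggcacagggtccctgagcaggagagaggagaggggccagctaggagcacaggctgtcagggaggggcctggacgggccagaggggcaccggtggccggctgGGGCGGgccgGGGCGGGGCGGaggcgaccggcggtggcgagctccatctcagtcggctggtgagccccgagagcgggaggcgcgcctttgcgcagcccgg

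Grin2d (chr7:45866632-45866931, minus strand): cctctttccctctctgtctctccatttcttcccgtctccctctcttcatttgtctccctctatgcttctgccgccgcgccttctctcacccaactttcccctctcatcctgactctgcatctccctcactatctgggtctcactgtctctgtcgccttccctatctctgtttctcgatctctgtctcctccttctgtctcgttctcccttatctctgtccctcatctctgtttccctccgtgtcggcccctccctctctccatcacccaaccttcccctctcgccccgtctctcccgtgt

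The Grin2c window holds 3 GC boxes, a pair of them overlapping, the Grin1 window holds 1, and no match to these letters was found in that of Grin2d. The cyclic AMP response element TGACGTCA (1.79% of windows) and the AP-1 site TGACTCA (5.2%), searched on both strands, matched none of the 3. The percentage of G and C was 70.0 in Grin2c, 60.7 in Grin1 and 56.0 in Grin2d, against a median of 52.7 over all windows.

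The baseline mix of subunits was compared first, in saline mice at 28 days, where all 3 regions were deposited as read counts. The VTA held another balance of GluN2 genes than the NAc and PFC. In the VTA, Grin2d was 3.81-fold higher than in the NAc, while Grin2b was 3.95-fold lower, and Grin1, Grin2a, Grin2c and Grid1 were lower too. Levels are given as RPKM, reads scaled to gene length and to the library's total, which allows genes of different length to be compared. For Grin1 and Grin3a the length used by the authors (4297 and 7500 bases) is under the 9700 and 15779 bases of all annotated exons, so their level relative to other genes depends on that choice.

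Grin1 was the most abundant of the 7 genes in every region. In saline mice at 28 days it stood at 116 to 142 RPKM (median 129) in the 6 NAc libraries and at 123 to 144 (median 135) in the 6 PFC libraries. The 5 VTA libraries held 84.7, 69.5, 61.1, 70.5 and 64.9 RPKM, all below every NAc and PFC library. The level in the VTA was lower than in the NAc by a log2 difference of -0.99 (SE 0.086, edgeR adjusted p = 2.2e-08), and the PFC exceeded the VTA by 1.09 (SE 0.086, adjusted p = 6.8e-09). The PFC and NAc differed by 0.11 (95% interval -0.06 to 0.28, adjusted p = 0.32), which did not pass.

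Grin2a, whose subunit gives fast-decaying currents, was the GluN2 gene called higher in the PFC than in the NAc. It ranged from 2.68 to 4.25 RPKM (median 3.62) in the NAc and from 5.06 to 7.79 (median 5.66) in the PFC, with no overlap. The VTA libraries held 0.425, 2.38, 1.87, 1.57 and 2.34 RPKM. The first of these lay far below the others, and the same library had the lowest Grin2b level of the group (1.19 RPKM). The PFC exceeded the NAc by 0.80 on the log2 scale (SE 0.26, edgeR adjusted p = 0.022) and the VTA by 1.94 (SE 0.29, adjusted p = 1.7e-05), and the VTA lay below the NAc by a log2 difference of -1.15 (SE 0.29, adjusted p = 0.0020). The call between PFC and NAc was lost without saline PFC library 5 (0.68, adjusted p = 0.057).

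Grin2b, whose slower receptors bind CaMKII, was the GluN2 gene with the widest gap between forebrain and VTA. Its level was 4.88 to 10.7 RPKM (median 9.16) in the NAc, 6.72 to 11.9 (median 9.37) in the PFC, and 1.19, 3.17, 2.79, 2.41 and 1.96 in the VTA. Every VTA library lay below every library of the other regions. The VTA differed from the NAc by -1.98 (SE 0.26, edgeR adjusted p = 3.5e-06) and the PFC from the VTA by 2.15 (SE 0.26, adjusted p = 1.6e-06). The NAc and PFC overlapped, with a difference of 0.17 (95% interval -0.32 to 0.67, adjusted p = 0.60).

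Grin2c, best known from cerebellar granule cells and astrocytes, had its highest level in the NAc. It stood at 10.5 to 14.3 RPKM (median 11.2) there, at 7.33 to 10.9 (median 8.77) in the PFC and at 6.06, 7.13, 5.96, 6.41 and 8.95 in the VTA. The VTA lay below the NAc (-0.87, SE 0.12, edgeR adjusted p = 6.1e-06), and so did the PFC (-0.38, SE 0.11, adjusted p = 0.011), while the PFC exceeded the VTA (0.49, SE 0.12, adjusted p = 0.0020). Summed markers of cerebellar granule cells, 4 genes, reached at most 0.212 RPKM in saline libraries of the NAc and PFC at 28 days and lay between 2.41 and 6.57 in the VTA. Of these 4 genes, 2 averaged at least 0.5 RPKM in saline VTA, so that sum rests on few genes. Summed astrocyte markers, 5 genes, lay between 273 and 325 RPKM in the NAc, 290 and 359 in the PFC and 320 and 888 in the VTA, and their part in the Grin2c levels was not tested.

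Grin2d, whose subunit gives the slowest currents and weak magnesium block, went the other way. Its level was 1.35 to 3.01 RPKM (median 1.77) in the NAc, 2.26 to 2.87 (median 2.42) in the PFC, and 8.79, 9.04, 8.11, 7.93 and 7.03 in the VTA, with no overlap between the VTA and either forebrain region. The VTA exceeded the NAc by 1.93 on the log2 scale (SE 0.16, edgeR adjusted p = 9.1e-09), and the PFC lay below the VTA by a log2 difference of -1.58 (SE 0.16, adjusted p = 1.1e-07). The PFC and NAc differed by 0.35 (SE 0.15, adjusted p = 0.075), which passed without saline NAc library 1 (0.48, adjusted p = 0.0086) or library 2 (0.44, adjusted p = 0.026).

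Grin3a had its lowest level in the NAc, at 3.73 to 7.84 RPKM (median 4.14), against 5.70 to 8.66 (median 7.16) in the PFC and 8.43, 10.4, 10.6, 12.6 and 8.48 in the VTA. Both the VTA (0.91, SE 0.17, edgeR adjusted p = 0.00018) and the PFC (0.59, SE 0.17, adjusted p = 0.0082) exceeded the NAc. The PFC and VTA overlapped and their difference of -0.32 (95% interval -0.68 to 0.04, adjusted p = 0.12) did not pass. In the NAc the 6 saline libraries fell apart, with 7.84 and 6.51 RPKM in libraries 1 and 2 and 3.73 to 4.54 in the others. Grin2d was also highest in those 2 libraries (3.01 and 2.68 RPKM, against 1.35 to 1.78). Grin2b was lowest in them (4.88 and 6.12 RPKM, against 8.40 to 10.7), and so was Grin2a (2.68 and 3.17, against 3.49 to 4.25).

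Grid1 was second only to Grin1 among the 7 genes in the NAc and PFC. It stood at 17.7 to 20.8 RPKM (median 18.7) in the NAc, at 13.5 to 16.8 (median 15.1) in the PFC and at 9.55, 10.6, 10.1, 9.79 and 8.94 in the VTA, and no pair of regions overlapped. The order NAc, PFC, VTA held in each contrast: the PFC lay below the NAc (-0.30, SE 0.070, edgeR adjusted p = 0.0020), the VTA below the NAc (-1.06, SE 0.075, adjusted p = 1.5e-09), and the PFC above the VTA (0.76, SE 0.075, adjusted p = 1.1e-07). In the VTA it was close to Grin3a and Grin2d in level. Of the relatives outside the set, Grin3b had a mean of at most 0.445 RPKM in any region.

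**Figure D1:**
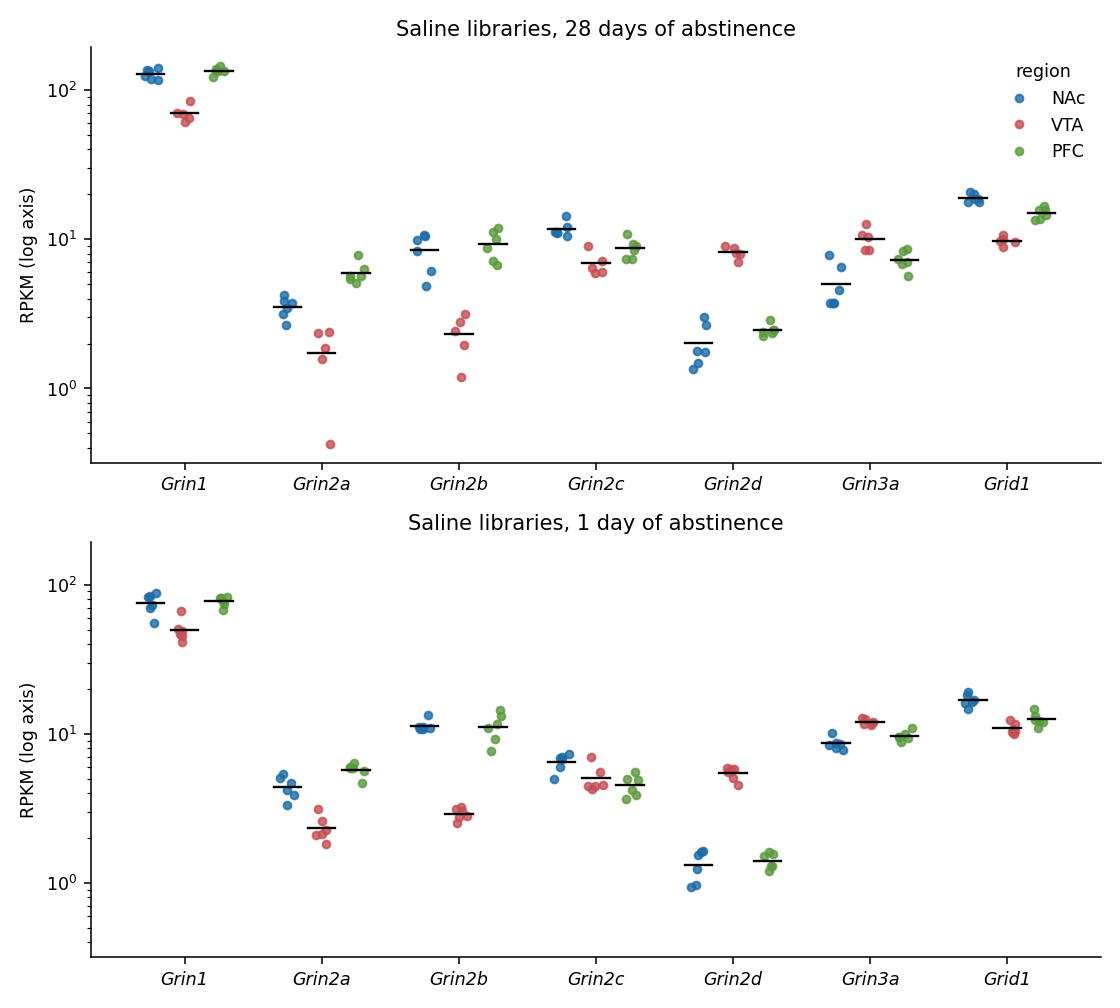
RPKM on a log axis for each receptor gene in saline libraries, with 1 point per library, colours for the 3 regions and black bars for group means, at 28 days (top) and 1 day (bottom). Grin2d stands higher in the VTA (7.03 to 9.04 RPKM at 28 days) than in the NAc and PFC, and Grin2b lower (1.19 to 3.17).

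In all, the VTA and NAc differed in 7 of 7 receptor genes, 2 higher and 5 lower in the VTA, beside 62.5% of 17181 genes tested (32.6% higher, 29.8% lower). The PFC and VTA differed in 6 of 7 (57.8% of all genes, 28.1% higher and 29.8% lower), 5 of them higher in the PFC, and the PFC and NAc in 4 of 7 (40.7%, 20.7% higher and 20% lower), with Grin2a and Grin3a higher and Grin2c and Grid1 lower in the PFC. Large shares of all genes differed between regions, and with 7 genes an excess over those shares was not tested. The median log2 difference of the 7 genes was -0.99 between VTA and NAc, against 0.03 over all genes, and 0.76 between PFC and VTA, against -0.02. The contrasts share libraries and are not independent. In bulk tissue, fewer cells of a type and less RNA per cell cannot be told apart.

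The punches were checked against markers of each region, summed over a list in RPKM. Striatal neuron markers (7 genes) lay between 1424 and 3425 in NAc libraries, cortical excitatory markers (6 genes) between 468 and 780 in PFC libraries, and dopamine neuron markers (7 genes) between 423 and 2030 in VTA libraries, against at most 19.5 in the NAc and 11.6 in the PFC. Saline PFC library 4 at 28 days stood apart, with a striatal sum of 1226 where the other PFC libraries at 28 days had at most 109. Without it the PFC still differed from the NAc in 4 receptor genes and from the VTA in 6. Cortical marker sums in the NAc ran from 3.11 to 285, and the part of this spread in the NAc levels was not tested.

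Expressed as a share of the summed GluN2 level per library, Grin2d made up 43.2% ± 6.68 (SD, n = 5) in saline VTA at 28 days, against 7.95% ± 3.11 (n = 6) in the NAc and 9.35% ± 0.823 (n = 6) in the PFC. Grin2b had the reverse pattern, at 11.9% ± 3.34 in the VTA, 32.4% ± 7.90 in the NAc and 34.7% ± 5.22 in the PFC. Grin2c held 36.1% ± 4.88, 45.9% ± 6.54 and 33.4% ± 6.29 in the VTA, NAc and PFC, and Grin2a 8.73% ± 3.61, 13.7% ± 1.61 and 22.5% ± 2.02. The values at 1 day, where the tables for VTA and PFC were deposited as RPKM, are given as a description. The VTA share of Grin2d was 34.6% ± 2.33 and its shares in the NAc and PFC were 5.62% ± 1.32 and 6.27% ± 1.18, the same order. Grin2b and Grin2c did not keep their balance: at 1 day they held 48.1% ± 3.28 and 27.5% ± 3.12 in saline NAc. In saline PFC they held 48.4% ± 5.22 and 20.1% ± 3.85. Mean Grin2c at 1 day was 5.05 RPKM in saline VTA and 4.54 in saline PFC, the reverse of the order at 28 days.

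**Figure D2:**
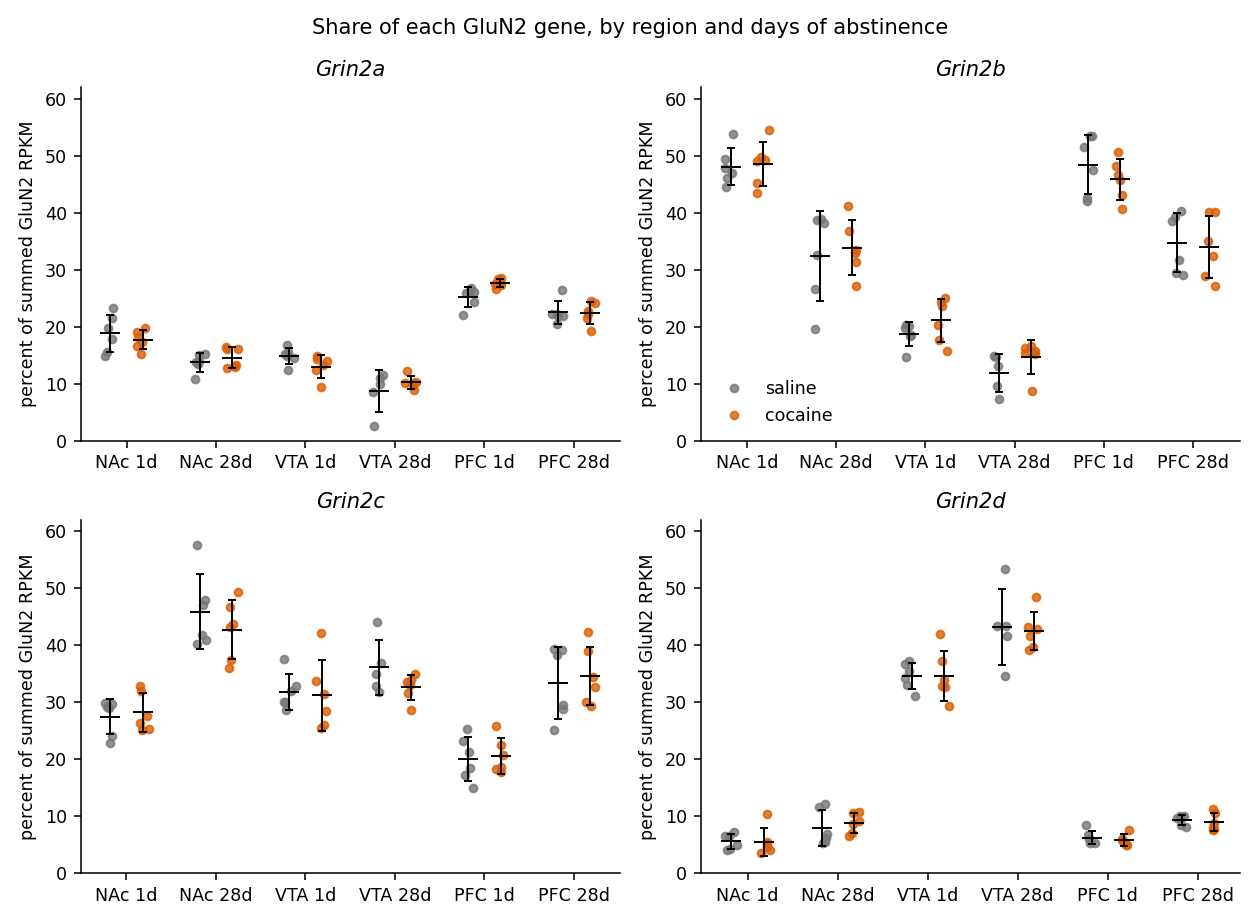
Share of Grin2a, Grin2b, Grin2c and Grin2d in the summed GluN2 RPKM of each library, in percent, by region and days of abstinence (d), with saline in grey and cocaine in orange and bars at the mean ± SD. Grin2d holds 43.2% in saline VTA at 28 days and 7.95% in saline NAc, and the ranges of saline and cocaine points overlap for every gene in each region and time point.

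The level of Grin2a relative to Grin2b was tested within each library, a measure that does not depend on library scaling. On the log2 scale the ratio was -1.21 ± 0.244 (SD, n = 6) in saline NAc, -0.57 ± 0.623 (n = 5) in the VTA and -0.61 ± 0.184 (n = 6) in the PFC at 28 days, so Grin2b exceeded Grin2a on average in each. The PFC exceeded the NAc by 0.59 (two-sided exact permutation test, p = 0.0022, adjusted over 3 region pairs 0.0065), the smallest p that 924 divisions of the libraries allow. The VTA exceeded the NAc by 0.64 (exact p = 0.043, adjusted p = 0.065), which did not pass, and without VTA library 1, whose Grin2a level was 0.425 RPKM, the difference was 0.87 (exact test, adjusted p = 0.014). The PFC and VTA differed by -0.05 (exact p = 0.80), which does not show that they were equal. At 1 day, given as a description, the saline ratio was -1.37 ± 0.307 (SD) in the NAc, -0.33 ± 0.303 in the VTA and -0.94 ± 0.226 in the PFC.

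Levels at 1 day and 28 days come from tables made separately, so time and table cannot be told apart, and no test was made. In saline NAc, Grin1 had a mean of 75.2 RPKM at 1 day and 129 at 28 days, Grin2c 6.49 and 11.7, and Grin3a 8.62 and 5.02. Cocaine mice showed the same order for Grin1 (73.7 and 123 RPKM).

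The effect of cocaine was then compared with saline within each region and time point. None of the 7 genes was called at an adjusted p under 0.05 in any of the 6 tables. In the NAc this was 0 of 7 at 1 day (0.0126% of 15878 genes called by edgeR) and 0 of 7 at 28 days (0% of 16295). In the VTA it was 0 of 7 at 1 day (0.186% of 15042 genes called by limma on log2 RPKM, 0.16% higher and 0.0266% lower) and 0 of 7 at 28 days (0% of 16937, edgeR). In the PFC it was 0 of 7 at 1 day (0.00693% of 14427, limma) and 0 of 7 at 28 days (0% of 16340, edgeR). At an unadjusted p under 0.05, 2 of the 7 stood out in the VTA at 28 days (11.5% of all genes), 1 in the PFC at 1 day (4.15%), and 0 in the NAc at 1 day (4.01%), the NAc at 28 days (6.76%), the VTA at 1 day (15.4%) and the PFC at 28 days (5.66%). DESeq2, run on the 4 count tables, called 1 of the 28 gene and table pairs, Grid1 in the VTA at 28 days, and edgeR on reads recovered from RPKM called 0 of 7 in both RPKM tables.

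**Figure D3:**
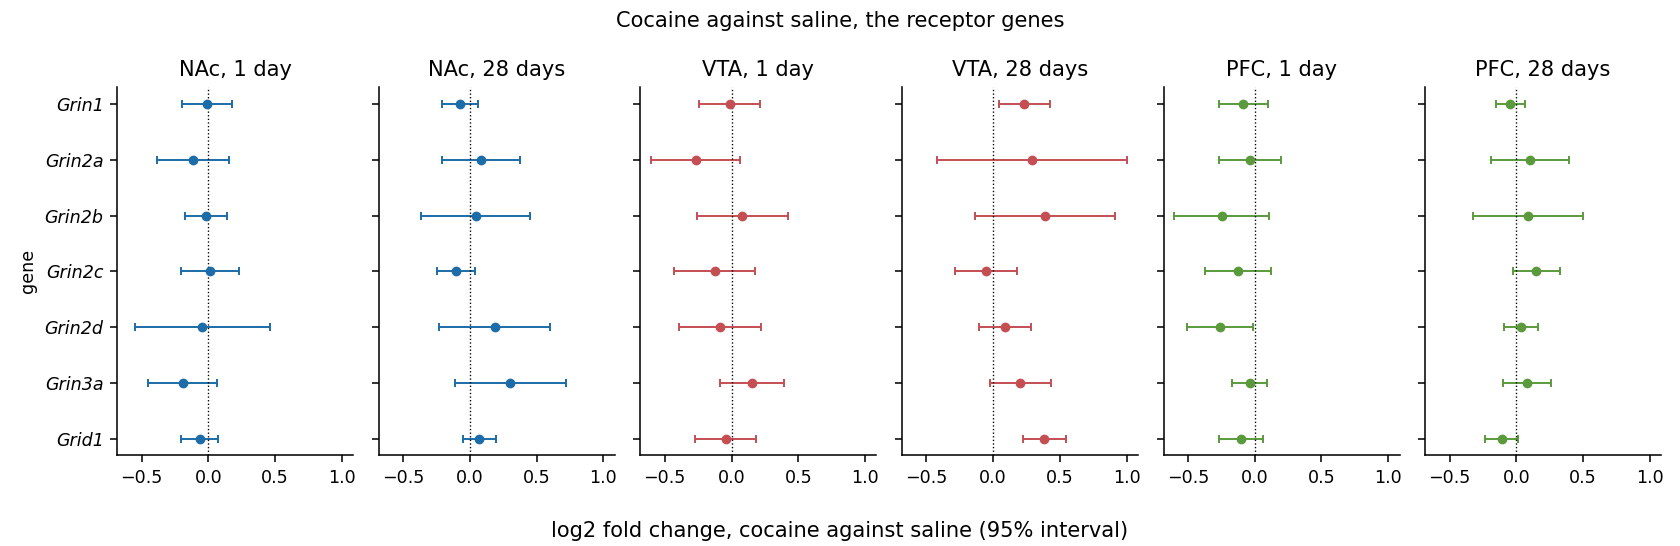
Log2 fold change of cocaine against saline for each receptor gene, with 95% intervals from edgeR, or from limma for VTA and PFC at 1 day, in 1 panel per region and time point. The intervals of Grid1 (0.22 to 0.54) and Grin1 (0.05 to 0.42) in the VTA at 28 days and of Grin2d (-0.51 to -0.02) in the PFC at 1 day leave out 0, before any adjustment.

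Grid1 in the VTA at 28 days was the only member in any table whose cocaine and saline libraries did not overlap. The 6 cocaine libraries held 13.1, 15.2, 12.1, 12.1, 11.8 and 12.8 RPKM, and the 5 saline libraries 9.55, 10.6, 10.1, 9.79 and 8.94. All 6 cocaine libraries lay above the highest saline library, as they did for 0.98% of the 16937 genes tested, with 0.348% the other way round. In the VTA at 1 day, 1.3% of genes stood wholly higher and 0.366% wholly lower after cocaine, against 0.157% and 0.0567% in the NAc at 1 day, 0.16% and 0.141% in the NAc at 28 days, 0.0832% and 0.0762% in the PFC at 1 day and 0.0796% and 0.153% in the PFC at 28 days. The log2 fold change was 0.38 (SE 0.074, 95% interval 0.22 to 0.54), with an unadjusted p of 0.00023 and an adjusted p of 0.39 over all genes in edgeR, and DESeq2 gave 0.39 with an adjusted p of 0.016 (0.380% of 19195 genes called). The adjusted p thus passed in 1 tool and not in the other.

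Leaving out any 1 of the 11 libraries kept the fold change of Grid1 between 0.34 and 0.43. Marker sums are given for these libraries, their ranges overlapped between treatments in every list named here, and no difference was tested. Cortical marker sums were 4.38 to 19.2 after cocaine and 4.70 to 84.2 after saline, and microglial sums (5 genes) 67.9 to 111 and 101 to 186. Oligodendrocyte sums (5 genes) were 2320 to 4233 and 3390 to 6586. Sums of GABA neuron markers (5 genes, Gad1, Gad2, Pvalb, Sst and Vip) were 198 to 299 and 269 to 415. Endothelial sums (4 genes) were 60.1 to 92.1 after cocaine and 66.9 to 154 after saline and astrocyte sums 287 to 745 and 320 to 888, while dopamine neuron sums were 634 to 1876 and 447 to 2030. With the list's mean level as a covariate in edgeR, the log2 fold change was 0.28 for cortical, 0.38 for dopamine neuron, 0.32 for oligodendrocyte, 0.32 for microglial, 0.35 for interneuron, 0.36 for astrocyte and 0.31 for endothelial markers. The edgeR adjusted p lay between 0.17 and 0.75 in these fits.

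At the other 5 comparisons Grid1 overlapped between treatments. In the NAc its log2 fold change was -0.07 at 1 day and 0.07 at 28 days (95% interval -0.05 to 0.19), in the VTA at 1 day -0.04 (-0.27 to 0.18), and in the PFC -0.10 at 1 day and -0.11 at 28 days (-0.23 to 0.02). With cortical markers as a covariate the sign in the VTA at 1 day turned, to 0.19 (limma adjusted p = 0.64), and on recovered reads to 0.18 (edgeR adjusted p = 0.63). Whether the effect at 28 days differed between the 3 regions was tested in 1 model of all 35 libraries. At an unadjusted p under 0.05, 2 of the 7 genes stood out, Grid1 and Grin1 (9.12% of all genes), and 0 of 7 passed after adjustment (0.0339% of 17679 genes). For Grid1 the edgeR adjusted p was 0.055. It passed in 7 of the 35 fits that left out 1 library, with edgeR adjusted p of 0.021 to 0.049 (without saline NAc 1, cocaine VTA 4, saline VTA 1 or 2, cocaine PFC 3, or saline PFC 3 or 5). With DESeq2 size factors the adjusted p was 0.045 (0.0339% of genes called), and in DESeq2 it was 0.00040 (0.918% of 7077 genes called, with no adjusted p given for Grin2a and Grin2d). The saline and cocaine VTA libraries enter both this test and the one above.

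**Figure D4:**
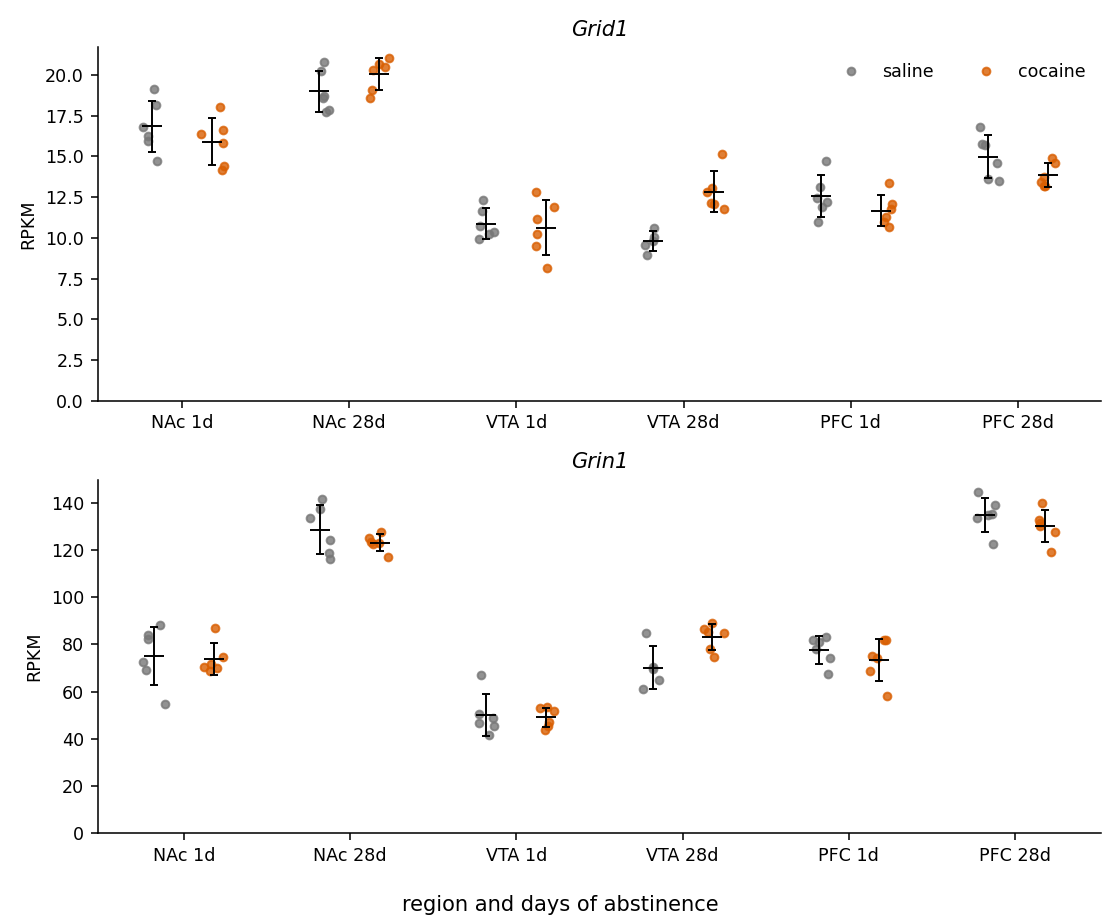
RPKM of Grid1 (top) and Grin1 (bottom) in each of the 71 libraries, by region and days of abstinence (d), with saline in grey and cocaine in orange and bars at the mean ± SD. In the VTA at 28 days the 6 cocaine points of Grid1 (11.8 to 15.2) lie above the 5 saline points (8.94 to 10.6), and in the other comparisons the groups overlap.

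Grin1 in the VTA at 28 days stood at 84.9, 89.1, 85.2, 74.5, 77.9 and 86.4 RPKM after cocaine and at 84.7, 69.5, 61.1, 70.5 and 64.9 after saline. The groups overlapped through saline library 1. The log2 fold change was 0.23 (SE 0.087, edgeR unadjusted p = 0.019, adjusted p = 0.40), and without that library it was 0.32 (adjusted p = 0.10). With cortical markers as a covariate it was 0.09 (unadjusted p = 0.39). In the other comparisons the fold change of Grin1 lay between -0.09 and -0.01. For the difference between regions at 28 days the edgeR adjusted p was 0.32, and 0.029 without saline VTA library 1.

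Of the GluN2 genes, Grin2d in the PFC at 1 day had the smallest p. It ranged from 0.880 to 1.503 RPKM (median 1.16) after cocaine and from 1.20 to 1.60 (median 1.41) after saline, and the groups overlapped. The log2 fold change on the log2(RPKM + 0.1) scale was -0.26 (SE 0.11, limma unadjusted p = 0.039, adjusted p = 0.92). Grin2d did not pass at an unadjusted p under 0.05 in the other 5 comparisons, with fold changes between -0.09 and 0.19.

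Grin2a and Grin2b had the widest intervals in the VTA at 28 days. Their log2 fold changes there were 0.29 (95% interval -0.42 to 1.00, edgeR adjusted p = 0.70) and 0.39 (-0.14 to 0.91, adjusted p = 0.51). Without saline library 1, the lowest of its group for both, they were 0.05 (edgeR adjusted p = 0.88) and 0.23 (adjusted p = 0.51), and with cortical markers as a covariate 0.78 (adjusted p = 0.39) and 0.60 (adjusted p = 0.35). In the NAc, intervals were narrower at 1 day, at -0.38 to 0.16 for Grin2a and -0.18 to 0.14 for Grin2b. Grin2c lay between -0.13 and 0.15 in all 6 comparisons, with the smallest unadjusted p of 0.093 in the PFC at 28 days. There the highest saline value, 10.9 RPKM, was that of library 4, which had the high striatal sum, and without it the log2 fold change was 0.23 (edgeR unadjusted p = 0.0028, adjusted p = 0.97). With cortical markers as a covariate it was 0.20 (edgeR adjusted p = 0.92). These intervals give the range of changes that the data allow for each gene, before any adjustment, and do not show that the levels were equal.

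Grin3a, whose receptors are known from cocaine-evoked plasticity in the VTA, overlapped between treatments in every comparison. In the VTA its level after cocaine was 9.75 to 16.1 RPKM (median 13.5) at 1 day, against 11.4 to 12.7 (median 11.9) after saline, and 10.3 to 13.3 (median 11.3) at 28 days, against 8.43, 10.4, 10.6, 12.6 and 8.48. The log2 fold changes were 0.15 (limma adjusted p = 0.54) and 0.20 (edgeR adjusted p = 0.46). In the NAc they were -0.19 (95% interval -0.45 to 0.06) at 1 day and 0.30 (-0.11 to 0.72) at 28 days, with adjusted p of 1.0 and 0.81. At 28 days the NAc value was 0.46 without saline library 1 (edgeR adjusted p = 0.46) and 0.42 with cortical markers as a covariate (adjusted p = 0.47). The change between time points in the NAc was 0.51 (SE 0.24, edgeR unadjusted p = 0.047, adjusted p = 0.94). It was the 1 member at an unadjusted p under 0.05 (5.27% of all genes), and 0 of the 7 passed after adjustment (0.0181% of 16612 genes, and 0 of 7 in DESeq2).

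The cocaine effect on the ratio of Grin2a to Grin2b did not pass in any of the 6 comparisons. It was largest in the VTA at 1 day, where the log2 ratio ran from -0.97 to -0.26 (median -0.76) after cocaine and from -0.72 to 0.19 (median -0.36) after saline, with overlap. The difference of means was -0.37 (two-sided exact permutation test, p = 0.041, adjusted over 6 comparisons 0.23). In these libraries cortical marker sums were 6.46 to 77.4 after cocaine and 2.00 to 31.5 after saline, and dopamine neuron sums 423 to 1029 and 663 to 1691, and their part in the ratio was not tested. In the PFC at 1 day the difference was 0.21 (exact p = 0.078, adjusted p = 0.23), and in the other 4 comparisons it lay between -0.08 and 0.07 (exact test, adjusted p = 0.97).

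**Figure D5:**
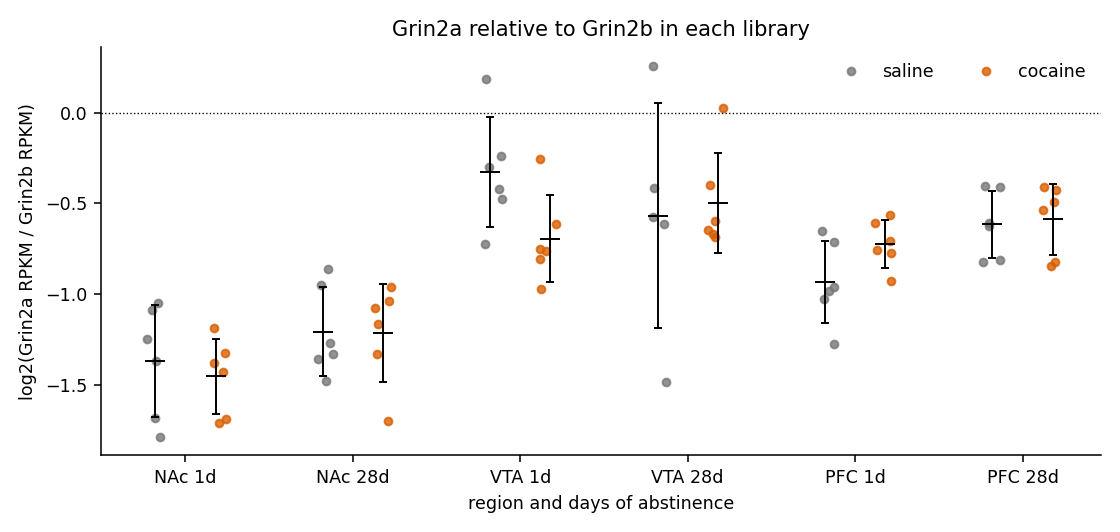
Log2 ratio of Grin2a to Grin2b RPKM in each library, by region and days of abstinence (d), with saline in grey, cocaine in orange and bars at the mean ± SD, and a dotted line at equal levels. The NAc groups have the lowest means (saline -1.21 at 28 days) and the groups of each region and time point overlap.

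Over the 35 libraries at 28 days, log2 levels of Grin2a and Grin2b went together (Pearson r = 0.90), and so did those of Grin2d and Grin3a (r = 0.82), while Grin1 and Grin2d were opposed (r = -0.90). These points share their region, which sets most of the spread. After each group's mean was removed, r was 0.75 for Grin2a and Grin2b, 0.74 for Grin2d and Grin3a, -0.26 for Grin1 and Grin2d and -0.54 for Grin1 and Grin3a. The genes most like each member over all 35 libraries were Epb4.9, Efna3 and Slc7a4 for Grin1 (r = 0.98 for each), Pi4ka, Sort1 and Gm10010 for Grin2a (0.96, 0.95 and 0.95), and Ncor1 and Dlg2 among those for Grin2b (0.96 each). For Grin2c they were Ptpn1, Rab40c and Zfp523 (0.94, 0.94 and 0.93), for Grin2d Itga3, Arl10 and AI646023 (0.98 each), for Grin3a Camk2d, C530008M17Rik and 1810041L15Rik (0.95, 0.95 and 0.94), and for Grid1 Tcf20, Wscd2 and Grm5 (0.96 each). No other receptor gene of the set was among the 3 closest of any member.

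Genes that anchor, modify or supply these receptors were followed from a list of 32 partners. Cocaine called 1 of 32 in the VTA at 1 day, Camk2a, beside 0.186% of 15042 genes. It called 0 in each of the other 5 comparisons, where 31 or 32 of the partners were tested and at most 0.0126% of all genes were called. Camk2a, the kinase that binds GluN2B, rose from 23.1 to 30.5 RPKM (median 26.2) after saline to 34.7 to 47.7 (median 40.0) after cocaine (log2 fold change 0.59, SE 0.091, limma adjusted p = 0.033). The groups did not overlap, and 1.3% of all genes stood wholly higher after cocaine in that comparison. Cortical marker sums in the same libraries, as given above, overlapped between treatments, with a median of 21.2 RPKM after cocaine and 4.60 after saline. Of the 6 cortical markers, 3 averaged at least 0.5 RPKM after cocaine and 2 after saline, so their mean rests partly on genes near the floor. With cortical markers as a covariate no gene was called there (Camk2a 0.60, limma adjusted p = 0.26). Leaving out 1 library at a time kept its fold change between 0.54 and 0.63, but the call was lost in 10 of 12 such fits and held only without cocaine library 6 or saline library 3 (limma adjusted p of 0.028 to 0.10 over the 12). In all, 13 of 32 partners had an unadjusted p under 0.05 there (15.4% of all genes), and the median over the partners was 0.0062, against 0.030 over all genes. The partners with the next smallest p in the VTA at 1 day were Nos1 (1.43, limma adjusted p = 0.096) and Actn2 (1.03, adjusted p = 0.13), neither called.

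In the VTA at 28 days the partners with the smallest p included Camk2a (log2 fold change 0.74) and Kif17, a motor that carries GluN2B (0.42), each with an edgeR adjusted p of 0.39. There, 8 of 32 partners had an unadjusted p under 0.05 (11.5% of all genes), and the median over the partners was 0.15, against -0.03 over all genes. In the NAc at 28 days they were Cbln4, a cerebellin (0.62), Slc1a4 (0.16) and Slc7a10 (0.27), both transporters of neutral amino acids that include D-serine, with edgeR adjusted p of 0.59 to 0.63. In the PFC at 28 days they were Cbln2 (0.24), Camk2a (0.13) and Actn2 (-0.62), each with an edgeR adjusted p of 0.84. Actn2 rested on 1 library: saline ran from 3.08 to 14.4 RPKM (median 3.58) and cocaine from 3.22 to 4.02 (median 3.62), and without saline library 4, of the high striatal sum, the value was -0.06 (edgeR adjusted p = 0.98). At 1 day they were Lin7b (-0.29), Dlg2 (0.12) and Src (-0.11) in the NAc (edgeR adjusted p = 1.0), and Actn2 (-0.24), Cbln4 (0.29) and Ptpn5 (-0.14) in the PFC (limma adjusted p = 0.92).

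Between regions in saline mice at 28 days, 25 of 32 partners differed between VTA and NAc (62.5% of all genes), 10 higher and 15 lower in the VTA, 26 between PFC and VTA (57.8%), 20 higher and 6 lower in the PFC, and 18 between PFC and NAc (40.7%), 12 higher and 6 lower in the PFC. Of the partners grouped as scaffolds, 9 of 9 were lower in the VTA than in the NAc, and of the kinases and phosphatases 4 of 8 were lower and 0 higher, beside 29.8% of all genes lower. Camk2a stood at 20.4 to 42.0 RPKM in the 5 VTA libraries, 404 to 556 in the 6 NAc libraries and 688 to 809 in the 6 PFC libraries. The scaffold genes Dlg4 (-1.72) and Dlg3 (-1.20) lay below the NAc on the log2 scale as well (edgeR adjusted p = 8.1e-11 and 1.1e-11).

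Of the co-agonist genes, 4 of 5 were higher and 1 lower in the VTA than in the NAc, beside 32.6% of all genes higher. Slc6a9, the glycine transporter GlyT1, had 68.2 ± 13.6 RPKM (SD, n = 5) in the VTA, 13.2 ± 1.93 (n = 6) in the NAc and 13.8 ± 2.34 (n = 6) in the PFC. Cbln1 had 9.51 ± 5.28, 0.508 ± 0.169 and 1.37 ± 0.363, and Cbln4 10.4 ± 2.82, 3.36 ± 1.07 and 2.03 ± 0.671. Dao, the enzyme that degrades D-serine, had 116 to 370 reads per library in the VTA and 0 to 3 in the NAc and PFC. Apba1, an adaptor in GluN2B transport, was also higher in the VTA than in the NAc (1.47). Between PFC and NAc, Dlgap1 (1.66), Ephb2 (1.52) and Apba1 (1.06) were the called partners with the smallest p among those higher in the PFC, and Ptpn5 (-1.61), Kif17 (-0.90), Camk2b (-0.75) and Actn2 (-2.47) among those lower. Striatal markers were high in saline PFC library 4, as given above, and its part in these partner values was not tested.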

How the data were processed

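RNA-seq was measured in 71 libraries in 12 groups, assigned by their labels. Per the study's methods and processing notes, the authors aligned reads with STAR 2.4.1d to mm9 with the Ensembl annotation. The authors deposited raw counts of reads per gene in 4 tables, and RPKM (reads divided by gene length and library total) in 2, the VTA and PFC at 1 day. The tables also hold the authors' fold changes and p-values, which were not used, and 30 columns of libraries outside the study's samples, which were left out. In the 28-day tables columns give a group and a number that matches none of the labels' numbers, so library numbers there are names.

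Counts were tested with edgeR 4.0.16 in R 4.3.3 (filterByExpr with a minimum count of 10 and total of 15, TMM, glmQLFit, glmQLFTest), while the RPKM tables, added to 0.1 and log2-transformed, went to limma 3.58.1 after genes averaging under 0.5 had been dropped. A gene was called where its Benjamini-Hochberg p, taken over every gene in the fit, was under 0.05. Region contrasts and interactions were fitted over the 28-day count tables, and time in the NAc over its 2 tables. Levels in count tables were turned into RPKM with the authors' gene lengths. Whole reads were recovered from RPKM for 100% of genes within 0.01 of a whole number. Ratios were tested with scipy 1.17.1. Likeness used log2 CPM with a prior count of 2. All libraries of a group differed by more than sampling noise. The steps were tested on simulated data.

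The genes were named by rule: all 7 members, partners called (up to 4 per direction), the 3 partners with the smallest p in each comparison, and the 3 most similar genes per member. Some genes that the rule names are not reported here. Members, lists and rules were chosen with earlier results of these data known. The alternatives were DESeq2 1.42.0, its size factors, no filter, a pseudocount of 1, an adjusted p under 0.25, edgeR on recovered reads, a cortical marker covariate, the replicate block and leaving out each library. The other marker covariates, and the covariate with recovered reads, were chosen after seeing the data.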

Additional observations from a re-analysis of the deposited data

Results flagged for a closer look

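Of 84 sets of libraries, 7 genes in 12 groups, 6 held a library far from the others by Dixon's test at the 95% level, and chance alone gives about 1 in 20. In the NAc at 1 day, cocaine library 5 was the highest for both Grin1 (86.9 RPKM, next 74.5) and Grin2d (2.56, next 1.15), and saline library 1 was the highest for Grin2b (13.4, next 11.2). In the VTA, saline library 4 at 1 day was the highest for Grin1 (67.0 RPKM, next 50.7), and cocaine library 6 at 28 days for Grin2c (7.50, next 6.66). In the PFC at 28 days, saline library 2 was the highest for Grin2d (2.87 RPKM, next 2.46).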

How the results depend on the processing

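The counts of receptor genes called were within 1.5 times the reported count in every alternative but those named here. In the VTA at 28 days DESeq2 called 1 member, and for the difference between regions DESeq2 and edgeR with its size factors each called 1, all Grid1; leaving out 1 library gave 0 to 2 there (1 or more in 7 of 35 fits), with Grin1 the second without saline VTA library 1. Leaving out libraries moved the Grin2a to Grin2b difference between -0.060 and 0.092 (NAc, 28 days), -0.16 and 0.28 (VTA, 28 days), -0.016 and 0.078 (PFC, 28 days), 0.43 and 0.87 (VTA against NAc) and -0.28 and 0.16 (PFC against VTA).

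None of the cocaine effects whose sign turned passed the test. Leaving out libraries moved those of the NAc at 1 day between -0.074 and 0.032 (Grin1), -0.055 and 0.035 (Grin2b), -0.068 and 0.058 (Grin2c) and -0.33 and 0.049 (Grin2d), of the VTA at 1 day between -0.063 and 0.075 (Grin1), -0.032 and 0.18 (Grin2b), -0.18 and 0.0098 (Grin2d) and -0.10 and 0.029 (Grid1), and of the VTA at 28 days between -0.10 and 0.068 (Grin2c). They moved between -0.078 and 0.12 (Grin2b, NAc at 28 days), -0.094 and 0.030 (Grin2a, PFC at 1 day) and -0.017 and 0.20 (Grin2b, PFC at 28 days), and the change with time in the NAc between -0.095 and 0.0040 (Grin1) and -0.052 and 0.16 (Grin2b). With the cortical covariate the sign turned for Grin2b in the NAc at 28 days (-0.056), in the VTA at 1 day for Grin1 (0.081), Grin2a (0.0036), Grin2d (0.076) and Grid1 (0.19), and on recovered reads for Grin1 (0.067), Grin2d (0.10) and Grid1 (0.18), and in the VTA at 28 days for Grin2c (0.0062) and Grin2d (-0.021). The oligodendrocyte and microglial covariates gave 0.043 and 0.095 for Grin2c there. The cause was not tested.

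The labels share replicate numbers, which the columns carry at 1 day. Same-numbered cocaine and saline libraries correlated at -0.47 to 0.60 in the NAc, -0.27 to 0.45 in the VTA and -0.16 to 0.07 in the PFC, and 2, 2 and 0 of 6 cocaine libraries correlated best with their own number. With 6 libraries per group, this check cannot show whether the numbers mark pairs. With the replicate block 0 receptor genes were called in each, the calls over all genes were 2, 13 (28 without it) and 1, and the sign turned for Grin1 in the NAc (0.00071). No paired analysis was possible at 28 days because the numbers in the column names match none of the labels' numbers. Whether depth or the number of libraries limits the calls was not tested. Over all genes, calls in the VTA at 1 day were 55 on recovered reads, 2 with no filter, 0 with the cortical covariate and 1269 at an adjusted p under 0.25, against 28. The call of Camk2a there was also lost with no filter (limma adjusted p = 0.061) and with the replicate block (0.057). DESeq2 called 19, 11 and 2 genes in the NAc at 1 and 28 days and the PFC at 28 days, against 2, 0 and 0, and 10 against 3 for the change with time.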
